A study of Mus musculus with 12 samples.

Results

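The let-7 miRNAs and miR-98 were followed as 10 rows of a table of 932 rows: the 9 guide arms let-7a-5p, b-5p, c-5p, d-5p, e-5p, f-5p, g-5p, i-5p and miR-98-5p, and let-7d-3p, the most abundant of the opposite arms. The rows were chosen by name. Small RNA had been sequenced from mitochondria isolated from mouse heart, with 6 libraries of wild-type (WT) and 6 of db/db genotype, the latter a mouse model of obesity and diabetes caused by loss of leptin receptor signalling. The labels used here give no age, sex or strain and no other treatment, and they do not say that each library came from a separate mouse, so the p-values cover only differences among these libraries, which may be technical. No fraction other than mitochondria was among the libraries, and whether a miRNA lay inside mitochondria was not tested. In such bulk preparations, fewer cells of a type and less RNA per cell cannot be told apart.

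let-7 is among the oldest known animal miRNA families. A guide arm is loaded into an Argonaute protein such as Ago2 and pairs through its seed (bases 2 to 8) with sites in target mRNAs, which are then repressed. Lin28 proteins hold back the maturation of let-7 precursors in early development, and the family accumulates as tissues differentiate, heart included. Its known targets include the growth regulators Ras and Hmga2 and components of insulin and insulin-like growth factor signalling.

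The 9 guide arms share 1 seed and differ in a few bases outside it, which set them apart as separate rows. Their RefSeq mature sequences (GRCm38.p6) are printed 5′ to 3′ with the seed in capitals, since all comparisons between members rest on these few bases.
mmu-let-7a-5p: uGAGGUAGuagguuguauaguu
mmu-let-7b-5p: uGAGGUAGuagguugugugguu
mmu-let-7c-5p: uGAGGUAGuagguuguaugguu
mmu-let-7d-5p: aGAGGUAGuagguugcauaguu
mmu-let-7e-5p: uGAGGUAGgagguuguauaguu
mmu-let-7f-5p: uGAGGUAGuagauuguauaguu
mmu-let-7g-5p: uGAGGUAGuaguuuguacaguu
mmu-let-7i-5p: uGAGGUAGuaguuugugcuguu
mmu-miR-98-5p: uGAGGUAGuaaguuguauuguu
mmu-let-7d-3p: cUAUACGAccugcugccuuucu

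All 10 matched an entry by name and all were 22 nucleotides long, so levels in RPM (reads scaled to a fixed library total) need no length term. Levels of different miRNAs compare reads, which need not be in proportion to molecules. How evenly the different sequences were captured was not tested, and this limit holds for the order, shares and arm percentages below. Counted from the 5′ end, let-7a-5p, the reference here, differed from let-7c-5p by A19G, from let-7e-5p by U9G and from let-7f-5p by G12A. let-7b-5p carried A17G and A19G, let-7d-5p U1A and U16C, let-7g-5p G12U and U18C, and miR-98-5p G11A and A19U. let-7i-5p was the most distant from let-7a-5p, with G12U, A17G, U18C and A19U. Reads of rows that differ by 1 base may be assigned to each other, and how the authors' mapping treated mismatches is not stated in the labels used here. Among the 635 table rows with a RefSeq mature sequence 10 had the seed GAGGUAG. The only one besides the guide arms was let-7k, which was above 0 in 1 library at 1.38 RPM. The seed of let-7d-3p, UAUACGA, occurred in no other of these rows.

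The members come from 12 precursor hairpins spread over several chromosomes. The sequences of let-7a-5p, let-7c-5p and let-7f-5p were each found in 2 hairpins, so that these rows sum over loci, and the other members in 1 each. In the GRCm38 annotation of GENCODE, let-7a-1, let-7f-1 and let-7d lie in exons of 1 long noncoding RNA (6720427I07Rik) on chromosome 13, with 261 and 1714 bases between neighbours. let-7c-2 and let-7b lie in exons of the noncoding RNA Lncppara on chromosome 15, 621 bases apart. let-7f-2 and miR-98 are 785 bases apart in an intron of Huwe1, a ubiquitin ligase gene, on chromosome X. let-7g lies in an intron of Wdr82, let-7e in an intron of Spaca6 beside miR-125a, let-7c-1 in an intron of Mir99ahg beside miR-99a, and let-7a-2 downstream of miR-100 on chromosome 9. A pair of hairpins is shown whole, with both mature arms in capitals: that of let-7d because both of its arms are members, and that of miR-98 because its guide arm had the only negative difference between genotypes.
let-7d hairpin, chr13:48536012-48536114, minus strand (GRCm38.p6): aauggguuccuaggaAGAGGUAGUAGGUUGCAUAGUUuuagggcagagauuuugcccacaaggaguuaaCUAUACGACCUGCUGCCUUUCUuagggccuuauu
miR-98 hairpin, chrX:151913214-151913321, plus strand (GRCm38.p6): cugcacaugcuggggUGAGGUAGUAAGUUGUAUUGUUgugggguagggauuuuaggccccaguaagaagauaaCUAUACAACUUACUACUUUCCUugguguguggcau

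Reads recovered from the RPM values ranged from 412749 to 1382046 per library, so 1 read was worth 0.724 to 2.42 RPM. The members rested on at least 30 reads in every library (miR-98-5p), and let-7c-5p, the most abundant, on 4525 to 9644 reads. The heart muscle miRNAs miR-1a-3p, miR-133a-3p, miR-208a-3p and miR-499-5p were above 0 in all 12 libraries and summed to 337987 to 439537 RPM. WT library 4 and db/db library 6, the shallowest pair, stood apart from the rest in earlier results of these data, so values without them are given where they matter.

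let-7 was an abundant family in these preparations. The 9 guide arms together held 2.69 to 4.20% of reads in WT libraries (median 3.78%) and 3.49 to 4.76% in db/db libraries (median 4.01%). Of the 6 db/db libraries 5 lay above the WT median, and the groups overlapped widely. The WT mean was 3.60% ± 0.62 and the db/db mean 4.08% ± 0.41 (SD, n = 6 each), a difference of 0.19 on the log2 scale. No test is given for this sum. It was lowest in WT libraries 5 and 6, at 2.98 and 2.69%, and highest in db/db library 6. Without WT library 6 the log2 difference was 0.11, without WT library 5 it was 0.14, and without db/db library 6 it was 0.15.

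The order of levels was let-7c-5p, a-5p, g-5p, f-5p, b-5p, i-5p, d-5p, let-7d-3p, let-7e-5p and miR-98-5p, from a mean over all libraries of 8532 RPM to 91.0 RPM. let-7c-5p ranked 18th to 27th among all rows of a library. It stood above let-7a-5p in 12 of 12 libraries. Neighbours in the middle of the order did not differ beyond their spread: let-7b-5p exceeded let-7i-5p in 6 of 12 libraries, let-7i-5p exceeded let-7d-5p in 8 of 12, and let-7f-5p exceeded let-7b-5p in 8 of 12, with log2 ratios that averaged less than their SD across libraries. let-7a-5p above let-7g-5p held in 10 of 12 libraries, with a mean log2 ratio of 0.33 ± 0.33 (SD, n = 12). let-7g-5p was above let-7f-5p also in 10 of 12. The steps from let-7d-5p down to let-7d-3p, let-7e-5p and miR-98-5p each held in 12 of 12 libraries.

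**Figure D1:**
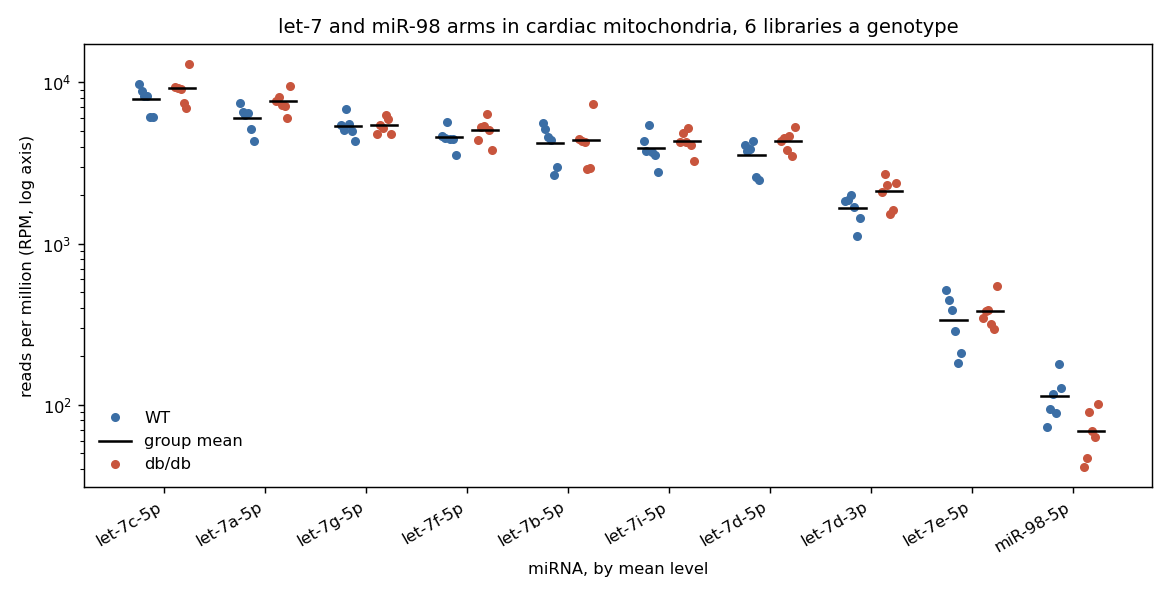
Level of each of the 10 miRNAs in RPM (log axis), ordered by the mean over all libraries; each point is 1 library (WT blue, db/db red) and each black line a group mean of 6 libraries. The genotypes overlap for every miRNA, and the miR-98-5p points of 4 db/db libraries lie below the lowest WT point.

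The study set the diabetic heart against the healthy one, and so does the comparison of the members. Of the 10 members 9 had higher and 1 had lower mean values in db/db libraries, with a median log2 difference of 0.19, against -0.039 over all 646 rows tested, of which 47.7% were positive. None passed the test across all rows (limma adjusted p 0.504 to 0.975), where 0.155% of rows were called. That 0.155% was 1 row, miR-22-3p, at -0.56 ± 0.13 (SE; limma adjusted p = 0.0466). At an unadjusted limma p under 0.05 there were 4 members, 3 positive (let-7a-5p, let-7d-5p, let-7d-3p) and 1 negative (miR-98-5p), against 8.98% of all rows (4.33% positive and 4.64% negative). Among the 147 rows that average 100 RPM or more, as 9 of the 10 members do, 33 or 22.4% were at such a p. edgeR and DESeq2 on the recovered reads also called 0 of the 10, with the smallest adjusted p at 0.135 for edgeR and 0.0581 for DESeq2 (let-7a-5p). The groups overlapped for all 10, against 0.929% of rows whose groups did not. The differences are of log2(RPM + 1) and share their scaling, so the members are not independent of each other.

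The largest positive differences among the guide arms were those of let-7a-5p and let-7d-5p, which are encoded in 1 cluster on chromosome 13. mmu-let-7a-5p, summed over the hairpins on chromosomes 13 and 9, ran from 4344 to 7470 RPM in WT libraries (median 6383) and from 6021 to 9524 RPM in db/db libraries (median 7471). The highest WT library was exceeded by 3 db/db libraries, and the WT median by 5 of 6. Means were 6047 ± 1111 and 7617 ± 1164 RPM (SD, n = 6 each), a log2 difference of 0.34 ± 0.14 (SE; 95% interval 0.066 to 0.62; limma adjusted p = 0.504). mmu-let-7d-5p, the one guide arm that starts with an A, ran from 2496 to 4320 RPM in WT (median 3821) and from 3509 to 5291 RPM in db/db libraries (median 4413). The highest WT value lay below 4 db/db libraries, and WT libraries 5 and 6 were well below the other 4. Means were 3522 ± 788 and 4354 ± 631 RPM (SD, n = 6 each), a log2 difference of 0.33 ± 0.15 (SE; 95% interval 0.032 to 0.62; limma adjusted p = 0.505).

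The opposite arm let-7d-3p had nearly the same difference as its partner. mmu-let-7d-3p ran from 1108 to 2012 RPM in WT (median 1763) and from 1529 to 2716 RPM in db/db libraries (median 2213). Again 4 db/db libraries exceeded every WT library, while db/db libraries 4 and 5 lay inside the WT range. Means were 1656 ± 333 and 2114 ± 461 RPM (SD, n = 6 each), a log2 difference of 0.35 ± 0.16 (SE; limma adjusted p = 0.543). let-7f-5p, from the same cluster and from the X-linked hairpin as well, ran from 3551 to 5693 RPM in WT (median 4487) and from 3799 to 6334 RPM in db/db libraries (median 5188). Only db/db library 4 exceeded the WT range, and the log2 difference was 0.14 ± 0.14 (SE; limma adjusted p = 0.717). It was 0.073 without WT 6 or without db/db 4 and 0.22 without db/db 6.

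let-7c-5p and let-7b-5p, whose hairpins neighbour each other in Lncppara, had positive differences that did not exceed the spread between libraries. let-7c-5p ran from 6086 to 9787 RPM in WT (median 8231) and from 6978 to 12979 RPM in db/db libraries (median 9175). Its difference was 0.22 ± 0.14 (SE; 95% interval -0.066 to 0.50; limma adjusted p = 0.717). Without WT 4 and db/db 6 it was 0.13 (limma adjusted p = 0.730), and without db/db 6 alone 0.11. let-7b-5p ran from 2661 to 5572 RPM in WT (median 4510) and from 2897 to 7341 RPM in db/db libraries (median 4314). Only db/db library 6 exceeded the WT median, and 5 of 6 lay below it. The log2 difference was 0.029 ± 0.17 (SE; 95% interval -0.31 to 0.37) and turned to -0.13 without db/db 6, -0.095 without WT 5 and -0.062 without WT 6.

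let-7e-5p, which lies between miR-99b and miR-125a, was the least abundant let-7 guide arm. It ran from 181 to 516 RPM in WT (median 337) and from 297 to 548 RPM in db/db libraries (median 364), with a log2 difference of 0.24 ± 0.23 (SE; limma adjusted p = 0.717). WT libraries 5 and 6 were the lowest and db/db 6 the highest. The difference was 0.080 without WT 5, 0.12 without WT 6, 0.13 without db/db 6 and 0.38 without WT 1. let-7g-5p, from the Wdr82 intron, ran from 4345 to 6802 RPM in WT (median 5264) and from 4766 to 6309 RPM in db/db libraries (median 5321). The db/db values lay wholly inside the WT range, and the log2 difference was 0.017 ± 0.13 (SE; 95% interval -0.25 to 0.29; limma adjusted p = 0.975). let-7i-5p, from chromosome 10, ran from 2781 to 5479 RPM in WT (median 3718) and from 3266 to 5209 RPM in db/db libraries (median 4268), also inside the WT range, at 0.16 ± 0.15 (SE; limma adjusted p = 0.717). Its difference was 0.063 without WT 6, 0.10 without db/db 4 and 0.26 without WT 3.

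miR-98-5p was the member with the widest log2 difference and the only negative one. mmu-miR-98-5p ran from 73.2 to 179 RPM in WT (median 106) and from 41.3 to 102 RPM in db/db libraries (median 65.7). The WT median exceeded all 6 db/db libraries, and 4 of these lay below every WT library, while db/db libraries 3 and 6 overlapped the WT range. Means were 113 ± 37.5 and 68.7 ± 23.8 RPM (SD, n = 6 each), a log2 difference of -0.73 ± 0.32 (SE; 95% interval -1.37 to -0.079; limma adjusted p = 0.504). It rested on 30 to 172 reads per library. The difference was negative in all 25 other settings run, at -0.91 to -0.58, and passed in none (adjusted p 0.135 with edgeR to 0.782 with limma without db/db 2).

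miR-98-5p was also set against let-7f-5p, since their hairpins neighbour each other in Huwe1; this ratio was chosen after its values were seen. The log2 ratio of miR-98-5p to let-7f-5p ran from -6.00 to -4.64 in WT libraries (median -5.59) and from -6.82 to -5.22 in db/db libraries (median -6.43). Again 4 db/db libraries lay below every WT library. The difference was -0.88 ± 0.33 (SE; exact permutation test, two-sided, p = 0.0325), or 0.0649 with Benjamini-Hochberg adjustment over the 2 ratios tested, which misses the threshold. Neither p covers the choice of this ratio after its values were seen. let-7f-5p also comes from the chromosome 13 hairpin, so its row is not the product of the Huwe1 locus alone.

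**Figure D2:**
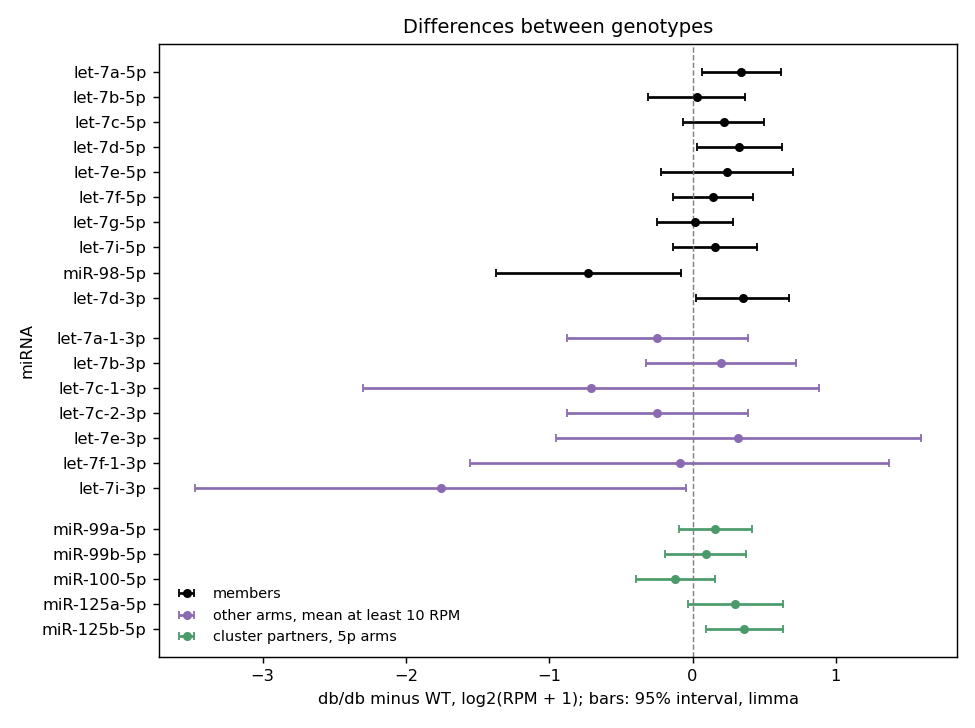
Difference of db/db minus WT in log2(RPM + 1) for the 10 members (black), the opposite arms of let-7 hairpins with a mean of at least 10 RPM (purple) and the 5p arms of cluster partners (green); bars are 95% intervals of the limma fit. Most members sit right of 0 at up to 0.35, miR-98-5p sits at -0.73, and the low-count opposite arms have intervals several times as wide.

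The share of each arm in the summed guide arms overlapped between genotypes for all 9. let-7c-5p averaged 21.9% ± 1.44 with WT and 22.4% ± 3.07 with db/db genotype, and let-7a-5p 16.8% ± 0.96 and 18.6% ± 1.07 (SD, n = 6 each). For let-7a-5p 4 db/db libraries lay above the highest WT share. let-7g-5p held 15.1% ± 1.63 and 13.4% ± 2.50, let-7f-5p 12.8% ± 1.41 and 12.5% ± 2.75, and let-7b-5p 11.6% ± 1.69 and 10.6% ± 2.83. let-7i-5p held 10.9% in WT and 10.7% in db/db libraries, let-7d-5p 9.74 and 10.7%, let-7e-5p 0.914 and 0.922%, and miR-98-5p 0.336 and 0.168% as group means. These shares add up to a fixed whole and were not tested.

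The ratio of the let-7d arms did not differ beyond the spread between libraries. let-7d-3p stood at 38.8 to 57.5% of let-7d-5p in WT libraries (median 47.1%) and at 32.7 to 60.6% in db/db libraries (median 47.4%). The difference of the log2 ratio was 0.023 ± 0.16 (SE; exact permutation test, two-sided, p = 0.885; 0.885 after adjustment over both ratios). A ratio within a library does not depend on its scaling. The other let-7 guide arms with 1 hairpin had far less of their opposite arm. let-7b-3p stood at 3.43% ± 0.68 (WT) and 3.90% ± 0.98 (db/db) of let-7b-5p, let-7e-3p at 5.33 and 5.31% of let-7e-5p, and let-7i-3p at 1.00 and 0.261% of let-7i-5p (SD and means over 6 libraries each).

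The other opposite arms were 10 rows, of which 3 had positive and 7 negative differences with a median of -0.20, and none passed (limma adjusted p 0.543 to 0.975). All 10 met the mean of 1 RPM needed for the test, including let-7g-3p and miR-98-3p, which were above 0 in only 4 and 3 libraries. The rows of the let-7c-2-3p arm and the let-7a-1-3p arm held identical values in all 12 libraries (WT mean 98.8 ± 28.1 RPM, db/db mean 82.1 ± 19.0 RPM). Their RefSeq mature sequences are identical as well, so the reads of the loci cannot be told apart. Both rows are among the 7 negative ones, so the same values enter that count and the median more than once.
mmu-let-7a-1-3p: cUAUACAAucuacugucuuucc
mmu-let-7c-2-3p: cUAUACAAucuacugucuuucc
Among them let-7i-3p had the widest difference, with a WT mean of 35.3 ± 22.6 RPM and a db/db mean of 9.92 ± 11.6 RPM (SD, n = 6 each; log2 difference -1.76 ± 0.86, SE; limma adjusted p = 0.543). It was at 0 in WT library 1 and db/db library 2. let-7b-3p averaged 141 and 161 RPM, at 0.20 ± 0.26 (SE). let-7c-1-3p (-0.71 ± 0.79), let-7e-3p (0.32 ± 0.64) and let-7f-1-3p (-0.090 ± 0.73) lay between 2.89 and 46.0 RPM in libraries where they were seen, and their differences were smaller than the SE.

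The cluster partners miR-99a, miR-99b, miR-100, miR-125a and miR-125b share primary transcripts with let-7c-1, let-7e and let-7a-2, and miR-125 is the vertebrate relative of lin-4, the other founding heterochronic miRNA. Of their 11 rows 6 were positive and 5 negative, with a median of 0.091, and none passed. For miR-125b-5p the WT mean was 36665 ± 6657 RPM and the db/db mean 47314 ± 10850 RPM (SD, n = 6 each), at 0.36 ± 0.13 (SE; limma adjusted p = 0.351). miR-125a-5p stood at 0.30 ± 0.17, miR-99a-5p at 0.16 ± 0.13, miR-99b-5p at 0.091 ± 0.14 and miR-100-5p at -0.12 ± 0.14 (log2 difference, SE). The row let-7j, named after the data were seen because of its name, averaged 669 and 709 RPM, at 0.13 ± 0.19 (SE).

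Across libraries the guide arms fell into sets that varied together. The 10 pairs among let-7a-5p, b-5p, c-5p, d-5p and e-5p had Pearson r from 0.67 to 0.93 (median 0.85) over the 12 libraries, and the 3 pairs among let-7f-5p, g-5p and i-5p from 0.84 to 0.92. The 15 pairs between these sets ran from -0.23 to 0.47 (median 0.15). With genotype means removed the medians were 0.89, 0.89 and 0.070. let-7d-3p went with the first set, at 0.71 to 0.82. miR-98-5p had negative r with all 8 let-7 guide arms, from -0.60 to -0.15. The sets were named after these r values were seen, so high r inside them and low r between them follow in part from that choice. These values are descriptions of 12 libraries that share scaling to a fixed total.

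Some neighbours in the genome varied together and others did not. The highest r of all 36 pairs of guide arms belonged to clustered arms, let-7b-5p with let-7c-5p (0.93) and let-7a-5p with let-7d-5p (0.93). let-7a-5p and let-7f-5p, also neighbours on chromosome 13 and 1 base apart, had r = 0.23, and let-7f-5p and miR-98-5p, neighbours in Huwe1, -0.31. Arms of separate chromosomes reached similar values, with r = 0.92 for let-7f-5p and let-7i-5p and 0.91 for let-7c-5p and let-7e-5p. let-7a-5p, let-7c-5p and let-7f-5p each sum over 2 loci, so a pair of rows is not a pair of loci. The 5 arms of the first set have GG at positions 11 and 12. let-7f-5p has GA there, let-7g-5p and let-7i-5p have GU, and miR-98-5p has AG. This coincidence of bases and sets is a description, noticed after the values were seen; sequence and locus cannot be told apart with so few arms. In db/db library 6 the sets went opposite ways. There let-7a-5p, b-5p, c-5p, d-5p and e-5p summed to 35683 RPM, the highest of the 12 libraries, and let-7f-5p, g-5p and i-5p to 11830 RPM, the second lowest. Without WT 4 and db/db 6 the pairs between sets ran from 0.063 to 0.83 (median 0.40), and those inside the sets from 0.54 to 0.94 and from 0.85 to 0.91.

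**Figure D3:**
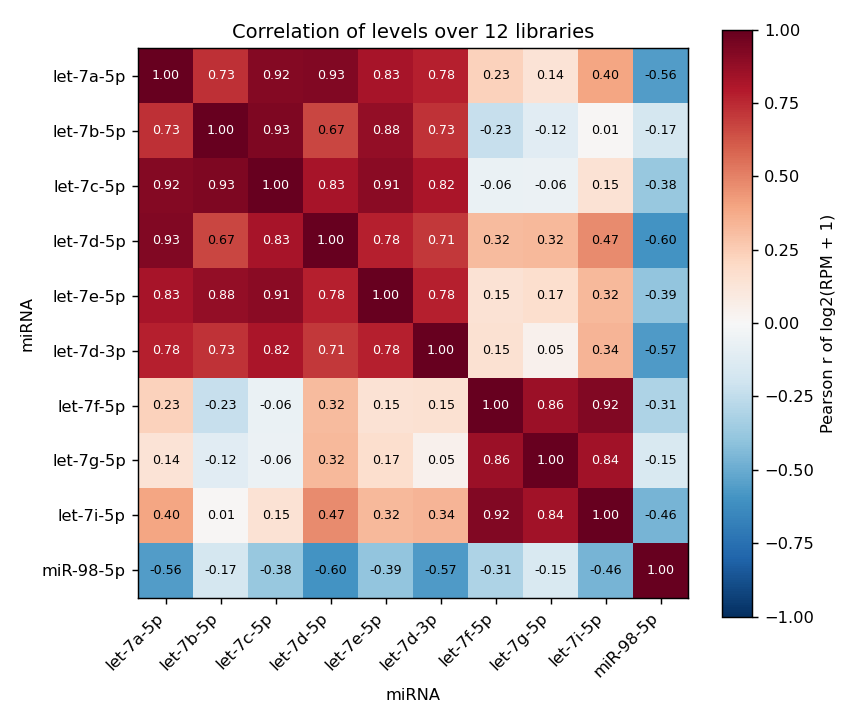
Pearson r of log2(RPM + 1) over the 12 libraries for each pair of the 10 miRNAs, from -1 (blue) to 1 (red). A red block holds let-7a-5p, b-5p, c-5p, d-5p, e-5p and let-7d-3p, a second one let-7f-5p, g-5p and i-5p, and the miR-98-5p row is blue against all others.

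The first set also moved with library depth. The sum of let-7a-5p, b-5p, c-5p, d-5p and e-5p had a Pearson r of -0.76 and a Spearman rho of -0.79 with the log2 of recovered reads over 12 libraries, and r = -0.70 without db/db 5 and db/db 6, the libraries farthest from the median depth. Within WT libraries r was -0.80 and within db/db libraries -0.96. For the sum of let-7f-5p, g-5p and i-5p r was 0.24 over all libraries, -0.11 without those 2, -0.20 within WT and 0.57 within db/db libraries. For miR-98-5p r was 0.0053 over all, 0.87 within WT and -0.37 within db/db libraries. Among the 138 other rows averaging 100 RPM or more, r with depth ran from -0.81 to 0.87 (median 0.002). These relations were noticed in the data and are given without a p. With recovered reads as a covariate, a setting added after the data were seen, the log2 differences of let-7a-5p (0.36, limma adjusted p = 0.139), let-7d-5p (0.34, 0.252), let-7d-3p (0.36, 0.331) and miR-98-5p (-0.73, 0.371) were of about the same size.

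**Figure D4:**
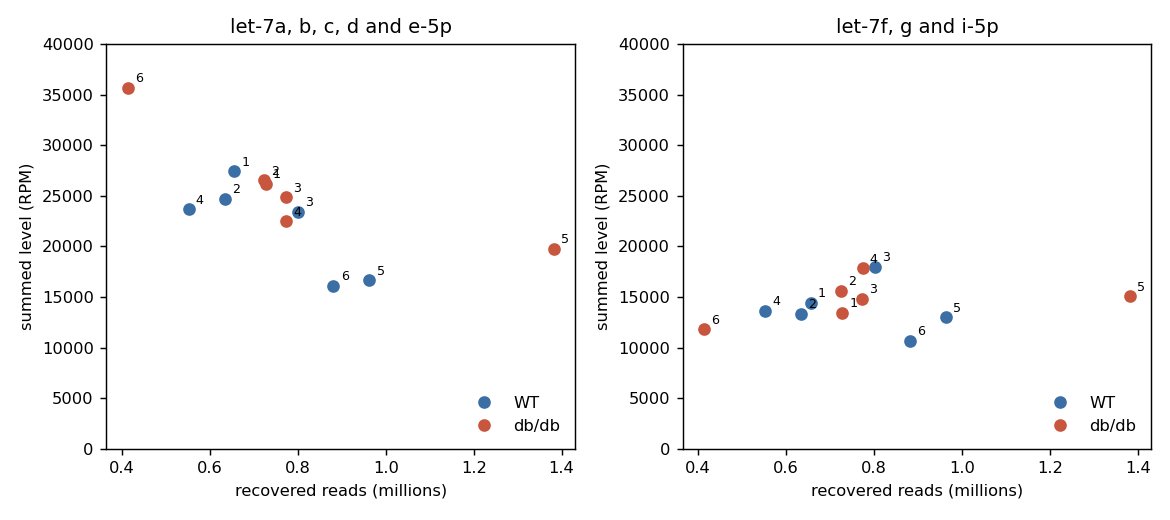
Summed level in RPM of let-7a-5p, b-5p, c-5p, d-5p and e-5p (left) and of let-7f-5p, g-5p and i-5p (right) against recovered reads per library; each point is 1 library, numbered within its genotype (WT blue, db/db red). The left sums go from 35683 RPM in the shallowest library to 19763 RPM in the deepest, with WT libraries 5 and 6 lowest, and the right sums have r = 0.24 over all 12 libraries.

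The summed miRNAs listed for cell types were set against the sets and miR-98-5p, each sum being mostly 1 row. Their r ran from -0.74 to 0.86, with some near 0. The heart muscle sum had r = -0.17 against the summed first set, 0.66 against the second set and -0.52 against miR-98-5p. Of this sum 84.8% was miR-133a-3p, with r of 0.24, 0.54 and -0.79 in that order. miR-1a-3p, miR-208a-3p and miR-499-5p had r of -0.71, -0.46 and -0.69 with the first set. Against the second set their r was 0.28, -0.15 and -0.026, and against miR-98-5p 0.43, 0.78 and 0.46. The 4 miRNAs listed for red cells (miR-451a, miR-144-3p, miR-144-5p and miR-486a-5p) summed to 9935 to 21146 RPM in WT and 18284 to 30731 RPM in db/db libraries. Their sum had r of 0.86, 0.11 and -0.66 against the first set, the second set and miR-98-5p, an order kept for the sums below. Of this sum 92.2% was miR-486a-5p, whose own r with the first set was 0.86, while those of miR-451a, miR-144-3p and miR-144-5p were 0.13, 0.38 and 0.15. Of these 4 only miR-144-5p was at 0 in any library, in 1. Whether the miR-486a-5p reads came from red cells or from other cells of the heart was not tested, so this sum is not a measure of red cells. The 5 smooth muscle and fibroblast miRNAs summed to 33897 to 47321 RPM in WT and 24559 to 39198 RPM in db/db libraries. Their sum had r of -0.74, -0.45 and 0.76, and 72.6% of it was miR-143-3p. miR-143-3p, miR-145a-5p and miR-199a-5p had the signs of the sum. miR-214-3p had the opposite signs, with r of 0.49, 0.61 and -0.58, and miR-199a-3p had r of -0.16, 0.37 and 0.20. The 3 endothelial miRNAs summed to 20026 to 30425 RPM in WT and 16719 to 26239 RPM in db/db libraries. Their sum had r of -0.50, -0.55 and 0.86, and 86.2% of it was miR-126a-3p. miR-126a-5p had r of -0.53, 0.27 and 0.51. miR-139-5p had the opposite signs to the sum, with r of 0.40, 0.27 and -0.35. The 5 leukocyte miRNAs summed to 3308 to 5171 RPM and 2981 to 6769 RPM, with r of 0.71, -0.16 and 0.0095, and miR-142a-3p was at 0 in 3 libraries. Of that sum 89.7% was miR-150-5p, which had r = 0.76 with the first set. miR-223-3p, a myeloid miRNA, went the other way, with r = -0.58 and 0.85 with miR-98-5p. Its 6 db/db libraries (175 to 289 RPM) all lay below the 6 WT libraries (306 to 478 RPM), at a log2 difference of -0.72 (limma adjusted p = 0.109). None of the 17 rows outside the heart muscle list passed the limma test, with 7 at an unadjusted limma p under 0.05. Of the 4 heart muscle rows 0 passed and 1 was at such a p (miR-208a-3p, log2 difference -1.34). Over all 646 rows tested 8.98% were at such a p, and 22.4% of those averaging 100 RPM or more. edgeR called miR-486a-5p, among 3 rows called in all. DESeq2 called miR-486a-5p (positive) and miR-223-3p (negative), among 8 rows called in all. The part of these cell types in the differences of the let-7 members was not tested.

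The rows whose profile was most like that of the summed guide arms, among the 138 others that averaged 100 RPM or more, were let-7b-3p (r = 0.86), miR-652-3p (0.86), miR-320-3p (0.85), miR-328-3p (0.83) and miR-125b-5p (0.82). The median r of the 138 was -0.01 and the lowest -0.91. The WT and db/db means of miR-652-3p were 1174 ± 320 and 1318 ± 242 RPM, and those of miR-328-3p 1016 ± 373 and 1168 ± 282 RPM (SD, n = 6 each). miR-320-3p averaged 524 ± 196 and 637 ± 166 RPM. All 5 were lowest in WT library 5 or 6, as were the 8 let-7 guide arms, and highest in db/db library 2 or 6.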

How the data were processed

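The authors deposited 1 table, called TPM, with 12 sample columns of equal sum. Since every value is a whole multiple of what 1 read is worth, its deposited values were treated as RPM without a length term. The submitters' processing notes name the build GRCm39; aligner and miRNA annotation: not given in the sources used here. A read count was recovered for every value (100% whole within 0.01 of a read).

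Genotypes were compared with limma 3.58.1 (R 4.3.3, trended prior) on log2(RPM + 1) for 646 rows whose mean reached 1 RPM, two-sided, with Benjamini-Hochberg adjustment over all of them and a threshold of 0.05. Ratios were tested by exact permutation of the libraries (Python 3.11.15). Alternatives included edgeR 4.0.16, DESeq2 1.42.0, scaling, filters, the replicate block and each library left out. The fits were tested on simulated data. Members and lists were chosen with earlier results of these data known. Named rows were the members, the opposite arms with a mean of at least 10 RPM, cluster partners, called rows and the 5 most similar rows averaging 100 RPM or more. Sequences came from RefSeq (GRCm38.p6) by name. Genes around the hairpins came from a GENCODE annotation of GRCm38, used for names and neighbours of the hairpins only. Intervals and errors cover these libraries; PCR copies are not independent molecules. Depth was 412749 to 1382046 reads per library. Plots were drawn with matplotlib 3.10.9.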

Additional observations from a re-analysis of the deposited data

Results flagged for a closer look

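A search of 44 groups of 6 values for a library far from the others, where chance gives about 1 in 20, found 3, all in db/db library 6, the shallowest library. let-7b-5p was 7341 RPM there and at most 4459 RPM in the other db/db libraries, a gap of 0.649 of the range. let-7e-5p was 548 RPM against at most 387 RPM (0.639 of the range). let-7i-5p held 6.86% of the summed guide arms there and at least 10.7% in the other db/db libraries (0.637 of the range). Their cause was not tested.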

How the results depend on the processing

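No setting called any of the 10 members. Of the 25 other settings, all kept the sign of let-7a-5p, c-5p, d-5p, e-5p, f-5p, i-5p, let-7d-3p and miR-98-5p. let-7b-5p turned to -0.11 without WT 4 and db/db 6. Leaving out single libraries gave -0.13 to 0.13 for let-7b-5p (negative without WT 5, WT 6 and db/db 6 in turn) and -0.041 to 0.088 for let-7g-5p (negative without WT 5, WT 6, db/db 4 and db/db 5 in turn). The log2 ratio of the let-7d arms (0.023) was -0.017 without WT 4 and db/db 6 and -0.045 to 0.13 when any single library was dropped (negative without WT 4, WT 5, db/db 2 and db/db 3 in turn). The difference in the log2 ratio of miR-98-5p to let-7f-5p ranged from -1.08 to -0.73 when any single library was dropped. The exact permutation p, without adjustment, then ran from 0.00866 to 0.0649. That p was above 0.05 when WT 5, WT 6, db/db 1, 2 or 4 (0.0649 each) or db/db 5 (0.0519) was dropped. Without WT 4 and db/db 6 this difference was -1.14 (exact permutation p = 0.0159, without adjustment). Over all rows, against 1 called, limma called 0 with a pseudocount of 0.1 or 10, no filter, a mean of at least 10 RPM, rescaling outside miR-133a-3p, no trend, or without WT 4 and db/db 6; 2 after median-of-ratios scaling, 10 with a factor that split numbers 1 to 3 from 4 to 6, and 6 with recovered reads as a covariate. edgeR called 3 and DESeq2 8. Leaving out 1 library gave 0 to 7: dropping WT 1 or WT 3 gave 6, dropping db/db 4 gave 3, db/db 5 gave 7, db/db 6 gave 1 and each other library 0. The cause was not tested. With the replicate block limma called 9 rows and no member. The labels do not say whether libraries of the same number are paired. The correlation of their deviations was over 0.1 in 2 of 6 pairs (-0.056 to 0.31). Of the 6 WT libraries, 2 correlated best with the db/db library of their own number. Such values cannot decide whether the libraries were paired. The numbers factor and the pair left out came from an earlier analysis of these data; the depth covariate and the miR-98 ratio were chosen after seeing the data.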
